A study of Mus musculus with 1307 samples.

Results

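A set of 10 matrix and matrix-linked genes was followed through single cells of the adult mouse heart: Prg4, Angptl7, Cytl1, Clec3a, Comp, Thbs4, Cilp, Coch, Thbs1 and Sox9. They were chosen by name, with their levels in these cells already known, as genes best known from cartilage and tendon, and each matched 1 of the 46517 rows of the count table. The table held 1307 cells of 8 mice, sorted from dissociated hearts into 384-well plates and sequenced by Smart-Seq2, a full-length cDNA method that gives 1 library per cell. Nearly all cells came from 4 mice with 1 plate each, so mouse and plate cannot be told apart. Of these mice, 3, called double-reporter mice 1 to 3 here, carried the strain label ACTA2GFP:CSPG4dsRED, which names a green reporter of Acta2 and a red reporter of Cspg4, and gave 368, 245 and 336 cells. The fourth was a C57BL/6 mouse without a reporter in its label, with 347 cells. The other 4 mice, which were 1 ACTA2GFP mouse, 1 CSPG4dsRED mouse and 2 further C57BL/6 mice, gave 11 cells in all. The series gives an age range of 8 to 30 weeks. All cells were labelled as heart, with no region of the heart, no gate of the sort and no treatment, so an origin in the valves was not measured. Double-reporter mouse 3 was labelled female, whereas the other 3 mice with many cells were labelled male.

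Heart valves are thin leaflets whose fibroblasts lay down layers rich in collagen, proteoglycan and elastin, and their matrix shares many proteins with cartilage and tendon. The transcription factor Sox9 is required for chondrocytes to form and acts in valve development as well. Its known neighbourhood in cartilage includes lubricants of the joint surface, the pentameric thrombospondins that bind collagen, and small secreted proteins of chondrocytes. Fibroblasts of the heart wall instead carry a looser interstitial matrix, which includes the collagen-binding proteoglycan decorin (Dcn).

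Promoter sequence was at hand for 5 of the 10 genes. The 250 bases before the RefSeq start (GRCm38.p6) are shown for Cilp and Thbs4, a pair often held by the same cells, for Coch, which no cell held together with Cytl1 in the double-reporter mice, and for Angptl7, the only one of the 5 with the SOX core letters. The windows are chr9:65264930-65265179 (plus strand) for Cilp, chr13:92794819-92795068 (minus strand) for Thbs4, chr12:51593091-51593340 (plus strand) for Coch and chr4:148500463-148500712 (minus strand) for Angptl7, each read 5′ to 3′ along the gene's strand. Capitals mark the SOX core.
Cilp: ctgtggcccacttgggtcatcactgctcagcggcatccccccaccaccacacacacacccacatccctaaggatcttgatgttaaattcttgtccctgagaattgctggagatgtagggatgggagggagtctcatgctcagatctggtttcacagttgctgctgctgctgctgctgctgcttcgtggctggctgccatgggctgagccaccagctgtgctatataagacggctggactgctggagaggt
Thbs4: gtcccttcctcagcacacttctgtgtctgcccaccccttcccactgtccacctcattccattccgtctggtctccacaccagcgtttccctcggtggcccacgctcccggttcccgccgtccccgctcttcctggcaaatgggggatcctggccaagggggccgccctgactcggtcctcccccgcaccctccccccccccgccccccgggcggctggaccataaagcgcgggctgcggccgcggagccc
Coch: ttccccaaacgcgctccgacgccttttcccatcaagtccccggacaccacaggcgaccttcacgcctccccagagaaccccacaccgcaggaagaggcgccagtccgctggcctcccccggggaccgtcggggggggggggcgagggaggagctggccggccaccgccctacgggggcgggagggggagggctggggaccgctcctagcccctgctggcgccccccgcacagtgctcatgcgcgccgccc
Angptl7: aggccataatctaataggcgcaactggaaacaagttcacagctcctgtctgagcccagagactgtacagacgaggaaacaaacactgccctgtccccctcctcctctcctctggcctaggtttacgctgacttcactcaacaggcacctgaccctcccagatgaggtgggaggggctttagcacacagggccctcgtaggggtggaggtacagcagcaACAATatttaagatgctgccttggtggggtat
The letters searched on both strands were ACAAT for the SOX core, CANNTG for the E-box, TGANTCA for the AP-1 site, and for the TATA box the letters TATAAA; a match to more than one of them was counted under each. Of 32851 mouse promoters of the same length, 27.7% held ACAAT, 66.2% CANNTG, 6.75% TGANTCA and 12.4% TATAAA. Angptl7 held 1 ACAAT, 32 bases before the start, and 3 CANNTG matches. Cilp held 3 CANNTG matches and Thbs4 held 1, while Coch and Cytl1 held none of the 4. The share of G and C was 70.8% for Thbs4 and 74.8% for Coch, against 56.0% for Cilp, 54.8% for Cytl1, 54.4% for Angptl7 and a median of 52.4% over all promoters.

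A cell was called Dcn-high at 500 CPM of Dcn or more, where CPM is counts per 1000000 counts of that cell, and a cell was said to hold a gene at 100 CPM or more of it. Dcn-high cells numbered 625 of 1307. The double-reporter mice gave 155, 136 and 274 of them in the order 1 to 3, and 56 came from C57BL/6 mouse 1. The Dcn threshold did not pick fibroblasts alone. Of the 16 clusters of cells built without the 10 genes, 5 (clusters 0, 3, 4, 12 and 15) had more raised markers of the fibroblast list (Dcn, Lum, Col1a1, Col1a2, Col3a1, Pdgfra, Tcf21, Dpt, Pi16 and Mfap5) than of any other, and they held 446 of the 625. Among the Dcn-high cells 78, 21 and 23 of double-reporter mice 1 to 3 lay outside these clusters. Of these, 50, 13 and 2 lay in cluster 5, which had 7 pericyte and 6 smooth muscle markers raised and stays unnamed, and 22, 6 and 3 lay in the smooth muscle-like cluster 8. In C57BL/6 mouse 1 this was 54 of 56, of which 49 lay in the endocardial-like cluster 10. The summed level of the 10 smooth muscle markers in Dcn-high cells was 5910, 2300 and 1109 CPM in double-reporter mice 1 to 3, with none of the 10 under 1 CPM, while the 10 fibroblast markers summed to 12987, 21220 and 20370 CPM. Just under the threshold, 20 cells with 400 to 500 CPM of Dcn included 2 that held Thbs1 and none that held another of the genes. Just above it, 15 cells with 500 to 600 CPM included 2 that held Thbs1 and 1 each that held Prg4, Cytl1 and Comp.

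Prg4 encodes lubricin, the lubricant of cartilage surfaces, and lies at chr1:150449412-150466165 on the minus strand, where it overlaps Tpr on the other strand. Its summed level in Dcn-high cells was 994, 1859 and 421 CPM in double-reporter mice 1 to 3, or 1091 ± 724 CPM (SD, n = 3 mice). In the other cells of these mice it was 11, 17.8 and 15 CPM. The lowest Dcn-high value was thus far above the highest value of other cells in all 3 mice, and mouse 3 was the lowest among the Dcn-high samples. Prg4 was held by 39.4%, 50% and 21.5% of Dcn-high cells, with 95% exact binomial (Clopper-Pearson) intervals of 31.6 to 47.5%, 41.3 to 58.7% and 16.8 to 26.9%, which cover counting error only. Most cells were either near 0 or far above the threshold: the median Dcn-high cell of mouse 1 had 25.6 CPM, and the median holder had 2149 CPM.

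Angptl7, a secreted angiopoietin-like protein, lies at chr4:148495183-148500460, and its level in Dcn-high cells was 312, 685 and 215 CPM in double-reporter mice 1 to 3 (404 ± 248, SD, n = 3). It was held by 20.6% ± 9.65 (SD, n = 3) of Dcn-high cells and by none of the 384 other cells of these mice, whose level was 3.82 ± 2.04 CPM. Cytl1, a small cytokine-like protein secreted by chondrocytes, lies at chr5:37735519-37739820 and stood at 238, 346 and 185 CPM, held by 18.5% ± 5.2 of Dcn-high cells. Clec3a, a cartilage lectin at chr8:114418086-114425846, was rare, at 27.9, 38.0 and 12.9 CPM, and 7, 5 and 4 Dcn-high cells held it. In all 4 of these genes mouse 2 had the highest level and mouse 3 the lowest.

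The thrombospondin family supplied 3 genes. Comp, the pentameric thrombospondin of cartilage and tendon that binds collagen, lies at chr8:70373558-70382066 and stood at 701, 1150 and 529 CPM in Dcn-high cells of double-reporter mice 1 to 3, with 27.8% ± 8.16 of these cells holding it. Thbs4, its pentameric relative of tendon and muscle, lies at chr13:92751590-92794818 and stood at 202, 648 and 89.7 CPM, held by 12.3%, 20.6% and 6.93% of Dcn-high cells. Thbs1, the trimeric form known for activating latent TGF-β, lies at chr2:118111876-118127133 and stood at 916, 1599 and 343 CPM. Of the 10 genes it was the least tied to Dcn: 8.92%, 21.1% and 4.84% of the other cells held it, and its level there was 73.0, 337 and 45.9 CPM. The summed levels of Thbs1 in Dcn-high cells, 343 to 1599 CPM, lay above those of other cells, but the lowest, 343, was close to the 337 CPM in other cells of mouse 2. Thbs1 overlaps the antisense gene Gm29233, whose counts followed it closely (r = 0.88, 0.92 and 0.72 over Dcn-high cells), and without a stated strand setting their reads cannot be told apart.

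Cilp, a protein of the intermediate layer of cartilage, lies at chr9:65265180-65280605 and ran from 356 CPM in mouse 1 through 531 in mouse 3 to 1496 in mouse 2. It was held by 17.4%, 38.2% and 28.1% of Dcn-high cells of mice 1 to 3 and by none of the 384 other cells. Its order over mice differed from that of Prg4, with the lowest level in mouse 1 and not in mouse 3. Coch, or cochlin, a matrix protein best known from the inner ear, lies at chr12:51593341-51605771 and was held by 9 of 155, 5 of 136 and 0 of 274 Dcn-high cells. Its summed level was 91.9, 65.7 and 0.0307 CPM, and mouse 3 gave 2 Coch counts in all its Dcn-high cells. The 0 of 274 cells allow a share of up to 1.34% (exact binomial limit), against 5.81% and 3.68% measured in mice 1 and 2, whose lower limits were 2.69% and 1.20%.

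Sox9 at chr11:112782224-112787760 was held by 40.6%, 49.3% and 56.9% of Dcn-high cells, at a level of 216, 238 and 337 CPM. Its mean share of 48.9% ± 8.15 (SD, n = 3) stood beside 42.4% ± 14.3 for Thbs1, which more cells held in mice 1 and 2 (49.7% and 51.5%). Sox9 was the only gene with its highest level in mouse 3. In other cells its summed level was 5.21, 7.20 and 4.21 CPM, below that of Dcn-high cells in each mouse. Single cells did overlap, since 2 of the 213 other cells of mouse 1 held Sox9, at up to 293 CPM. Per kilobase of exon, the levels in Dcn-high cells of the 3 mice ran from Comp at 267 ± 108 CPM per kilobase (SD, n = 3) through Prg4 at 255 ± 169, Cytl1 at 243 ± 77.9, Cilp at 187 ± 144, Angptl7 at 187 ± 115, Thbs1 at 157 ± 103, Thbs4 at 95.2 ± 89.7, Sox9 at 63.8 ± 15.6 and Clec3a at 44.4 ± 21.3 to Coch at 17.5 ± 15.8. Neighbours in this order differed by less than the larger of their SDs, except Clec3a and Coch, whose means were further apart than either SD.

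**Figure D1:**
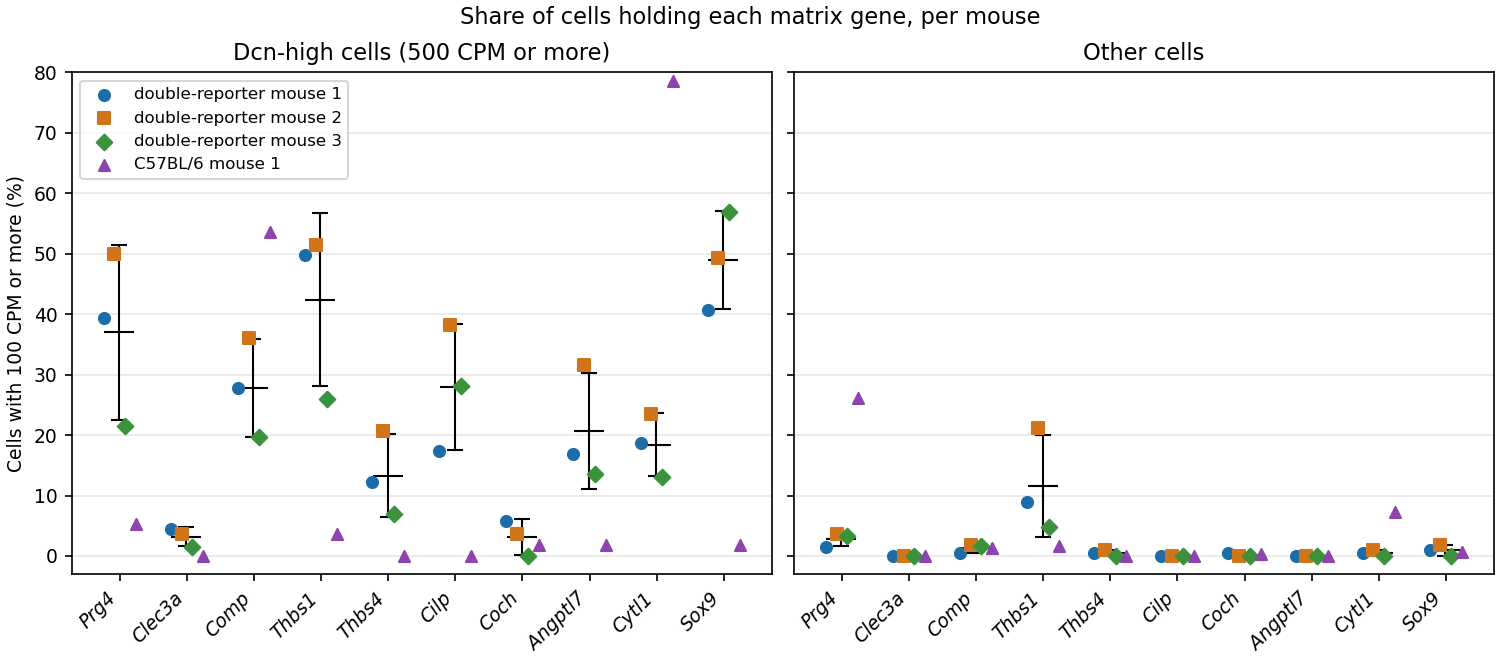
Share of cells with 100 CPM or more of each gene (percent, y axis) in Dcn-high cells and in other cells. Each point is 1 mouse, and bars give the mean ± SD over the double-reporter mice. Among Dcn-high cells Sox9 reached 40.6 to 56.9% in the double-reporter mice, while Cytl1 was held by 78.6% and Thbs4 and Cilp by 0% of those of C57BL/6 mouse 1.

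Within the fibroblast-marker clusters the genes were spread unevenly. Cluster 0 had 5 of the 10 fibroblast markers raised, which were Dcn, Lum, Col1a1, Col1a2 and Dpt. Cluster 0 (159 cells, led by Wif1, Chad and Prg4, with 70, 61 and 28 cells of double-reporter mice 1 to 3) held Thbs1 in 80.5% of its cells, Prg4 in 79.9%, Sox9 in 76.1%, Comp in 57.2%, Angptl7 in 44.0%, Cilp in 43.4% and Cytl1 in 39.6%. All 14 Coch-holding cells of the double-reporter mice that were Dcn-high lay in cluster 0, as did 15 of the 16 that held Clec3a. Cluster 4 (121 cells, with all 10 fibroblast markers raised) held Sox9 in 64.5%, Cilp in 37.2% and Prg4 in 27.3%. It was led by Thbs4, Upk3b and Cilp and stays unnamed, since Upk3b is on the mesothelial marker list. Cluster 3 (led by Smoc2, Svep1 and Cxcl14, with 117 of its cells from double-reporter mouse 3) held Sox9 in 53.5% and Cilp in 25.2%, but Prg4 in only 6.30% and Cytl1 in 2.36%. Among these 3 clusters Sox9 was therefore common in those both rich and poor in Prg4. Cluster 12 (27 cells) went the other way, with Prg4 in 37.0% and Sox9 in 11.1%, and cluster 15 (13 cells) held Prg4 in 23.1% and Sox9 in 61.5%. For background, the Schwann-like cluster 7, which should lack these genes, had 3 of 76 cells holding Prg4, 1 holding Angptl7, 1 holding Thbs1 and none holding the others, at a median depth of 331235 counts against 306541 in cluster 0.

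The level of Prg4 within cluster 0 was 1928, 3726 and 2897 CPM in double-reporter mice 1, 2 and 3, and that of Comp was 1351, 2014 and 3789 CPM. The low total of mouse 3 thus came with few cells in cluster 0 and without the lowest level inside it. In cluster 4, however, Prg4 was at 250.4 CPM in mouse 3 against 691 in mouse 2, and Comp at 331 against 823 CPM. None of the 28 cluster 0 cells of mouse 3 had a count of Coch, whereas 16 of 70 and 12 of 61 did in mice 1 and 2.

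**Figure D2:**
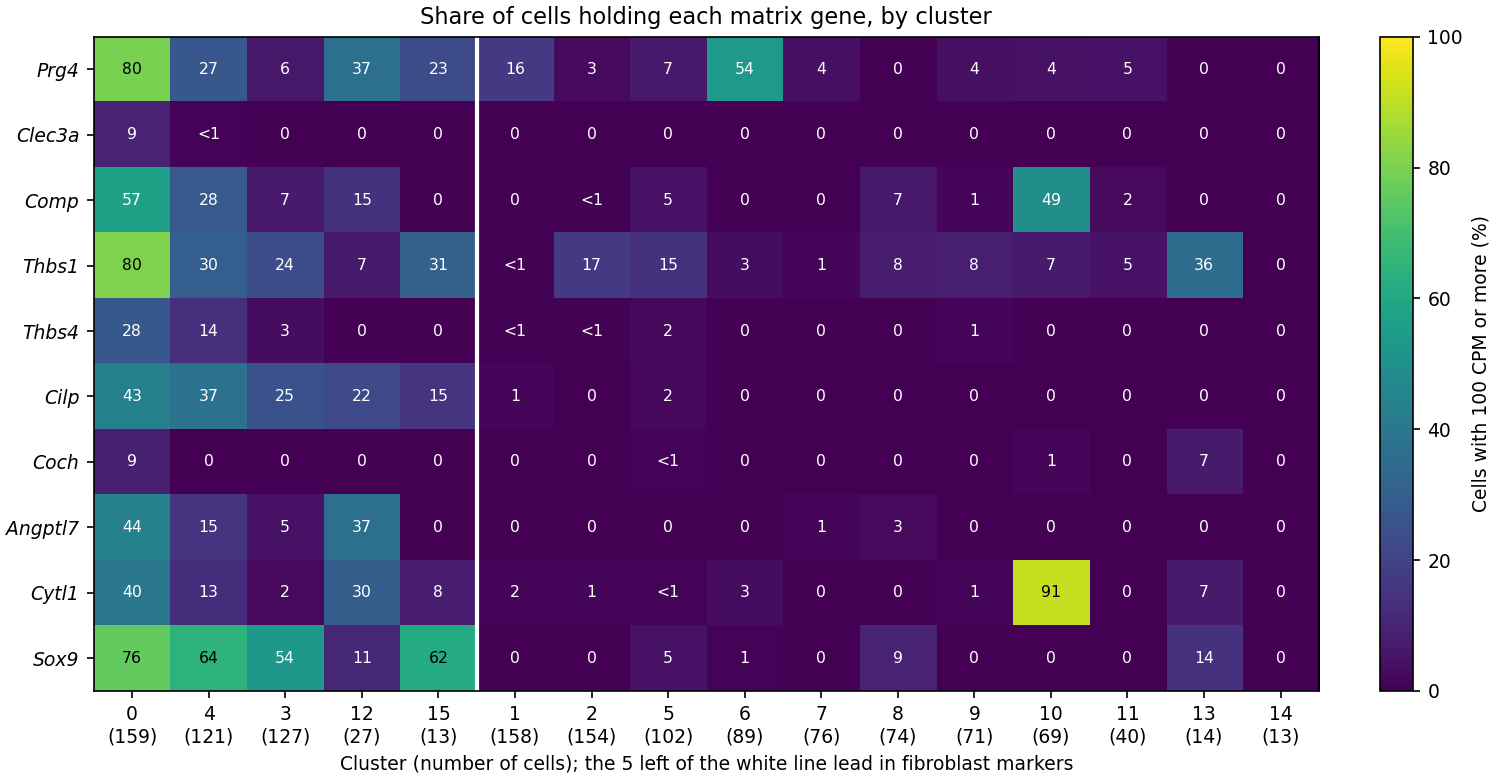
Share of cells with 100 CPM or more of each gene (colour, percent) in each cluster, with the number of cells under each cluster number; the 5 clusters left of the white line lead in fibroblast markers. Cluster 0 holds Prg4 in 79.9% and Thbs1 in 80.5% of cells, and cluster 10 holds Cytl1 in 91.3%.

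The C57BL/6 mouse showed 3 of the genes in other cell types. In its endocardial-like cluster 10 (64 of its cells; Npr3, Plvap and Vwf among the raised markers), 59 cells held Cytl1 and 34 held Comp, at 1284 and 646 CPM of the summed counts. Over all mice, 63 of the 69 cells of cluster 10 held Cytl1, and double-reporter mice 1 and 2 had only 1 and 3 cells there. Among the 56 Dcn-high cells of C57BL/6 mouse 1, mostly from that cluster, 44 held Cytl1, 30 held Comp and 28 held both. Prg4, Angptl7 and Sox9, which were high beside Cytl1 in the double-reporter mice, were held by 3, 1 and 1 of these 56. Prg4 in this mouse was instead held by 76 of 291 other cells, and 47 of the 84 cells in the endothelial-like cluster 6 held it, at 301 CPM. None of those 84 held Angptl7 or Comp. Tpr, the gene overlapping Prg4, averaged 220 CPM in these cells with r = 0.16 to Prg4, and r was 0.42 in cluster 1, which had 25 of the 76 cells. In Dcn-high cells of double-reporter mice 1 to 3 that r was 0.42, 0.51 and 0.30. Tpr averaged 121 to 162 CPM in other cells of these mice, where Prg4 averaged 12.6 to 18.3 CPM. Without a stated strand setting, reads of Prg4 and Tpr from their overlap cannot be told apart. Clec3a, Thbs4 and Cilp had no count in any of the 347 cells. With 1 C57BL/6 mouse of this size, and with 2 of its cells both Dcn-high and in fibroblast-marker clusters, strain, plate and the types of cell sorted cannot be told apart. Counts summed over cells, here as elsewhere, do not separate fewer cells of a type from less RNA per cell.

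Co-expression was next followed from cell to cell within each double-reporter mouse. Prg4 and Comp were held together: 59.0%, 54.4% and 61.0% of Prg4-holding cells held Comp, against 7.45%, 17.6% and 8.37% of the other Dcn-high cells. Their correlation on the log2(CPM + 1) scale was 0.58, 0.43 and 0.60 over 155, 136 and 274 cells. Thbs4 was held largely by cells that held other genes of the set: 12 of 19, 26 of 28 and 19 of 19 Thbs4-holding cells held Cilp, with correlations of 0.47, 0.55 and 0.47. Prg4 was held by 19, 23 and 13 of the same Thbs4-holding cells, Thbs1 by 19, 27 and 12, and Comp by 14, 23 and 16. Of all Dcn-high cells, 39.4%, 50% and 21.5% held Prg4, 49.7%, 51.5% and 25.9% Thbs1, and 27.7%, 36.0% and 19.7% Comp. Conversely, 44.4%, 50% and 24.7% of Cilp-holding cells held Thbs4. All 16 Clec3a-holding cells held both Prg4 and Thbs1. Of these 16, 15 lay in cluster 0, where 79.9% of all cells held Prg4 and 80.5% held Thbs1.

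Some pairs depended on the mouse. Prg4 and Thbs1 correlated at 0.67, 0.62 and 0.29, Prg4 and Sox9 at 0.58, 0.37 and 0.10, and Thbs1 and Sox9 at 0.61, 0.40 and 0.12 in mice 1, 2 and 3. The share of cells outside the fibroblast-marker clusters fell in the same order, at 78 of 155, 21 of 136 and 23 of 274. A link between the 2 orders was not tested, and the mice also differed in plate and, for mouse 3, in labelled sex. Within the fibroblast-marker clusters Prg4 and Sox9 correlated at 0.20, 0.27 and 0.12, and within cluster 0 at 0.18, −0.18 and −0.06. Thbs4 and Cilp stayed at 0.41, 0.52 and 0.47 and at 0.36, 0.37 and 0.75. Over all 45 pairs the mean correlation was 0.304, 0.227 and 0.183 in the 3 mice, with a mean of 0.238, and it was 0.176 in the fibroblast-marker clusters and 0.135 in cluster 0. These correlations are descriptions over cells that share a plate and differ in depth.

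**Figure D3:**
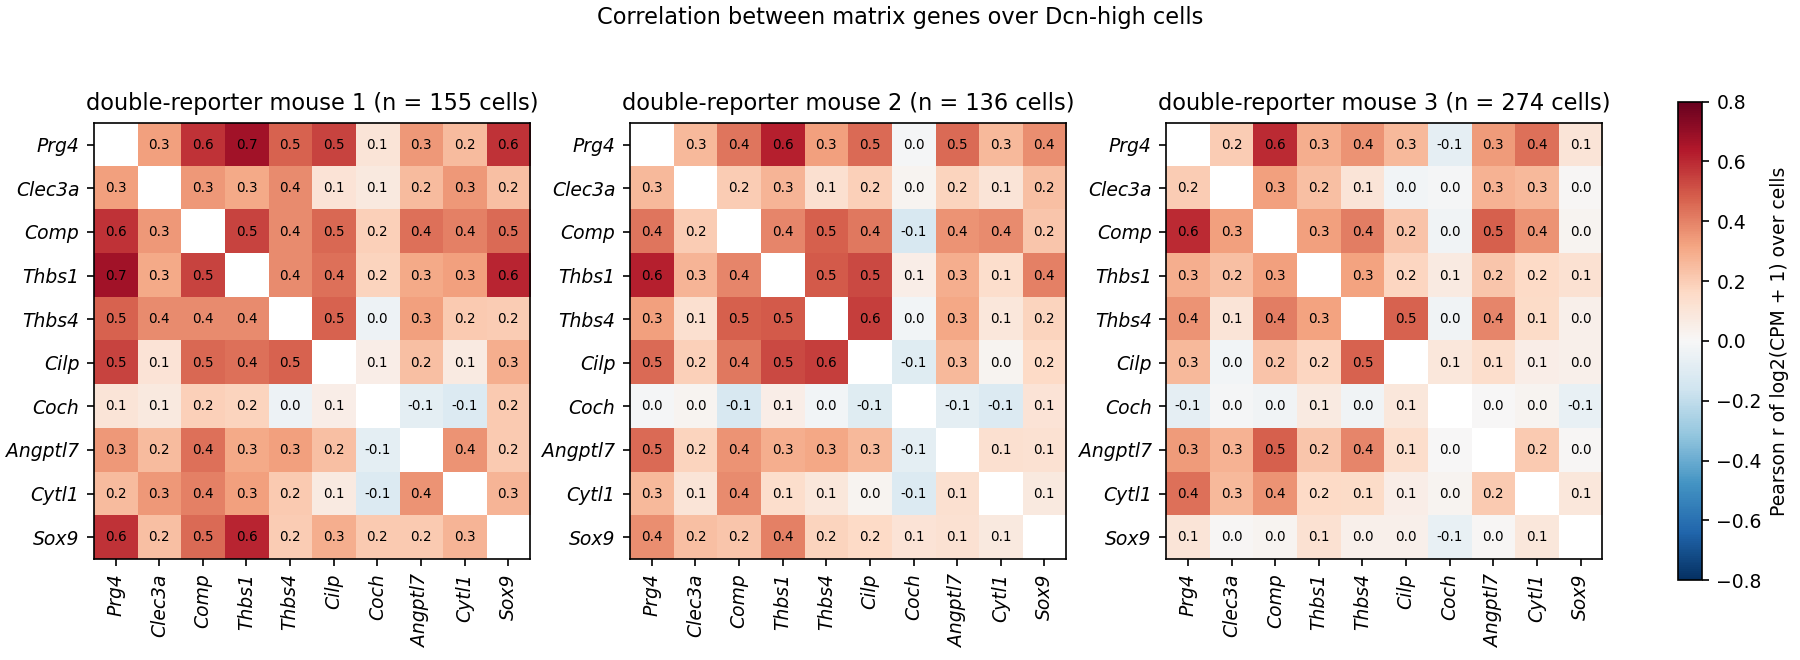
Pearson correlation of log2(CPM + 1) between the 10 genes over Dcn-high cells of each double-reporter mouse (colour; 155, 136 and 274 cells). The blocks for Prg4 with Comp (0.58, 0.43 and 0.60) and for Cilp with Thbs4 (0.47, 0.55 and 0.47) recur in all 3 mice, while the Sox9 column fades in mouse 3.

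Coch and Cytl1 were not held by the same Dcn-high cell of the double-reporter mice. None of the 14 Coch-holding cells, all from cluster 0 of mice 1 and 2, held Cytl1. Among the other cluster 0 cells, 25 of 61 in mouse 1 and 21 of 56 in mouse 2 did. In mouse 3, which had no Coch-holding cell, 17 of 28 did. This difference rests on few Coch-holding cells and was not tested. Coch correlated with Prg4 at 0.10, −0.01 and −0.07 and with Cytl1 at −0.11, −0.11 and 0.02. Of the 9 Coch-holding cells of mouse 1, 7 held Comp, and of the 5 of mouse 2 none did, so the small groups differed between mice.

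Cells holding at least 1 of Prg4, Angptl7, Cytl1 and Clec3a were then set against cells holding Cilp or Thbs4. In mouse 1, 40 cells held only the first set, 33 held both and 1 held only the second. In mouse 2 these were 39, 46 and 8 cells. In mouse 3 they were 51, 37 and 40 cells, and 26 of the 40 lay in cluster 3. Of the Cilp-holding cells, 25 of 27 held Prg4 in mouse 1, 40 of 52 in mouse 2 and 30 of 77 in mouse 3. This difference between mice was not tested, since each plate is 1 mouse. Cells holding 5 or more of the 10 genes numbered 36, 43 and 29, and 88 of these 108 lay in cluster 0. In C57BL/6 mouse 1 no Dcn-high cell held more than 3.

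**Figure D4:**
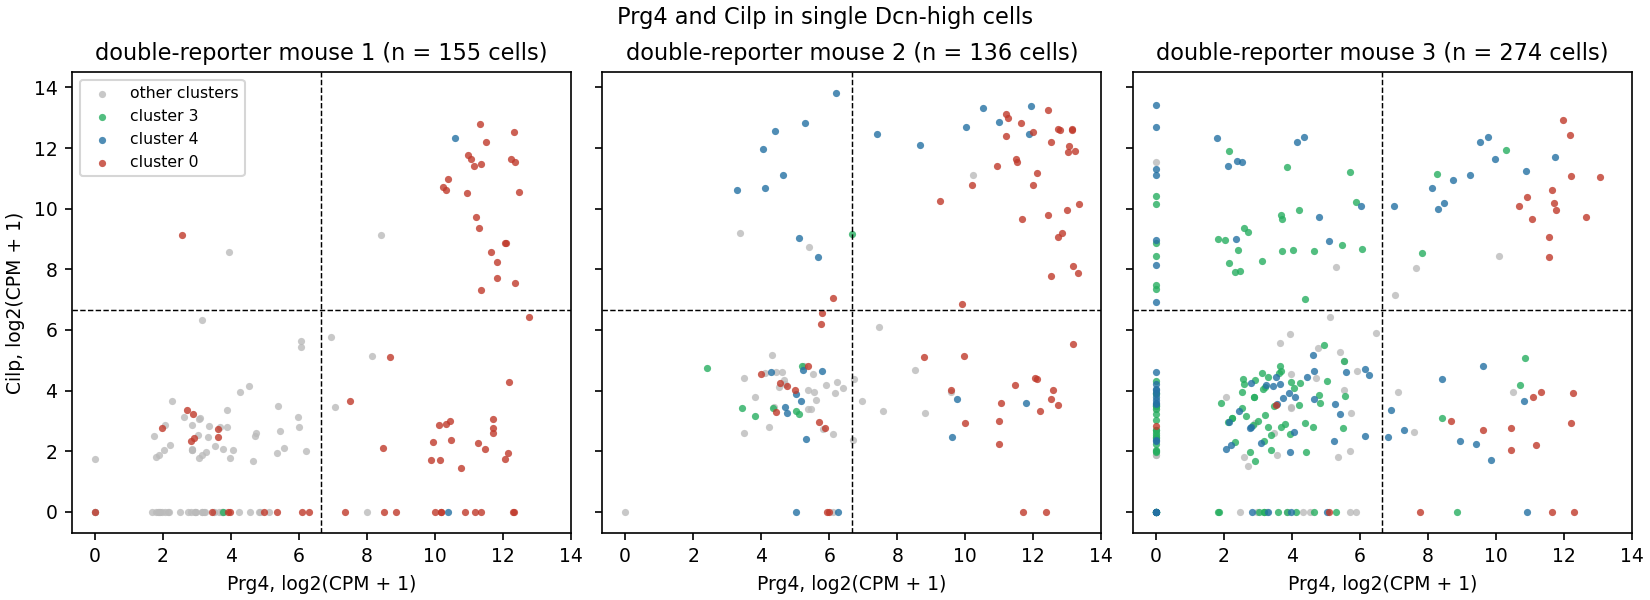
Prg4 (x axis) against Cilp (y axis), both as log2(CPM + 1), with 1 point for each Dcn-high cell of each double-reporter mouse, coloured by cluster. Cells with Cilp and without Prg4 number 2 of 27 Cilp-holding cells in mouse 1 and 47 of 77 in mouse 3.

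**Figure D5:**
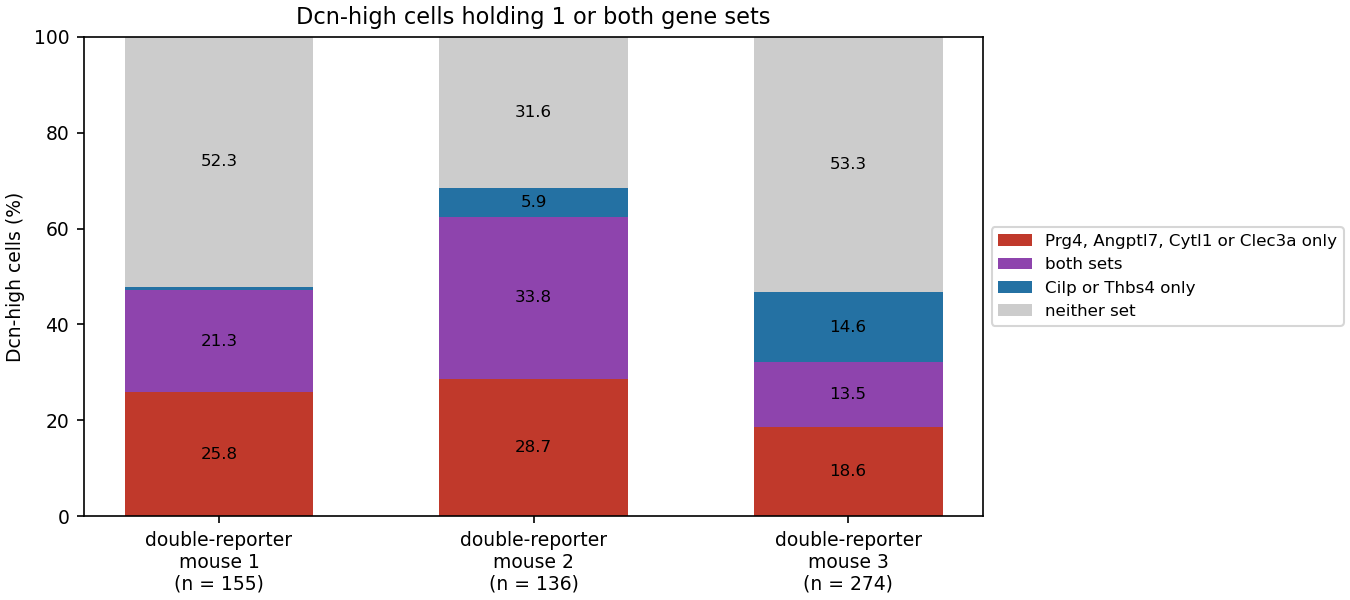
Dcn-high cells (percent, stacked bars) of each double-reporter mouse that held Prg4, Angptl7, Cytl1 or Clec3a only, Cilp or Thbs4 only, both sets, or neither. The Cilp or Thbs4 only share is 0.645%, 5.88% and 14.6% in mice 1, 2 and 3, and the first set only share is 25.8%, 28.7% and 18.6%.

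The genes outside the 10 whose levels most followed each of them over Dcn-high cells were ranked by the mean correlation within the 3 double-reporter mice. Fmod (fibromodulin, a collagen-binding proteoglycan of tendon and cartilage) was among the first 3 for Prg4, Angptl7, Comp, Thbs4 and Thbs1, with mean r from 0.40 to 0.57. The gene 1500015O10Rik was first for Prg4 (mean r 0.62) and Cytl1 (0.43). Unlike the other listed genes it was not left out of the clustering, and it is among the leading genes of cluster 0. Chad (chondroadherin, a cartilage protein that binds chondrocytes) was first for Angptl7 (0.49), Cilp2 first for Clec3a (0.44), and Col8a2, a short-chain collagen, first for Thbs4 (0.45). Cilp was followed most by Fibin (0.43), Col12a1 (0.42) and Meox1 (0.41), and Sox9 by Ccdc80 (0.45), Etv1 (0.41) and Vim (0.41). For Coch, with 2 mice, they were Pkp2 (0.43), a desmosome protein, Lgr5 (0.33) and Gm16048 (0.32). Fmod stood at a mean of 3521 CPM in cluster 0, 444 in cluster 4 and 86.7 in cluster 3, while Fibin stood at 889, 485 and 470 CPM.

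To ask which further genes went with Prg4, counts were summed per mouse over the Prg4-holding and the other Dcn-high cells (61 and 94, 68 and 68, 59 and 215 cells) and compared with edgeR's quasi-likelihood test with the mouse as a block and Benjamini-Hochberg adjustment. Of 17149 genes, 9 were higher (0.0525%) and 5 lower (0.0292%) in Prg4-holding cells, 14 in all (0.0816%). The higher ones included Prg4, Thbs1 and Angptl7, which is a description since the cells were split on Prg4 and the genes chosen with their values known. Among the others, Spp1 (osteopontin, a phosphoprotein of mineralised matrix) was at 180, 315 and 184 CPM in Prg4-holding cells of mice 1 to 3 and at 1.69, 4.95 and 1.83 CPM in the rest, a log2 change of 6.5 ± 0.261 (SE, edgeR adjusted p = 0.0114). Chad was at 662, 874 and 964 CPM against 20.3, 11 and 16.9 CPM, a log2 change of 5.77 ± 0.332 (edgeR adjusted p = 0.0227). Neither gene overlapped between the sides. Col8a2 (log2 change 3.44), Col12a1 (3.17), Scara3 (2.06) and Prelp (1.44) were also higher in all 3 mice, with edgeR adjusted p-values of 0.0227 to 0.0484.

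Lower in Prg4-holding cells were Vtn (vitronectin, on the pericyte marker list), Cnn1 (calponin of smooth muscle), Dpep1, Prss23 and Prss23os, which is antisense to Prss23 and may share its reads. Their log2 changes were −3.71, −3.65, −2.85, −2.45 and −2.52. The smooth muscle and pericyte markers moved with these. The 10 smooth muscle markers summed to 1703, 1358 and 857 CPM in Prg4-holding cells and to 9006, 3278 and 1188 CPM in the rest, with none at 0, and 78.7%, 27.9% and 10.2% of the rest lay outside the fibroblast-marker clusters. Among cells of those clusters alone the log2 changes of Cnn1 and Vtn were −0.82 and −0.95 and neither was called. In these clusters the test called 3 genes, which were Prg4, Dpep1 and Cyp26a1, a retinoic acid-degrading enzyme. Spp1 (log2 change 5.79) and Chad (5.40) missed the threshold in them, with edgeR adjusted p-values of 0.0906 and 0.418. Without cells of mixed markers the log2 changes of Cnn1 and Vtn were 0.81 and 0.09. That setting left mice 2 and 3, since 141 of the 155 Dcn-high cells of mouse 1 counted as mixed. Within cluster 0, where mice 1 and 2 had enough cells, Dpep1 turned to a log2 change of 2.78. Leaving out mouse 1, 2 or 3 left 2, 1 and 1 called genes, and Chad was the gene beside Prg4 without mouse 1.

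Gene lists gave the wider picture, although they too were written with earlier results known. Of 20 cartilage matrix genes tested, 2 were called higher (Chad and Prelp) and none lower, and their median log2 change was 3.80 against −0.04 over all genes. Of 20 tendon matrix genes, Col12a1 was called higher, with a median of 0.64. Of 14 interstitial fibroblast genes, Dpep1 was called lower, with a median of −0.15. No gene was called in the lists of regulators of cartilage, tendon and valve (22 tested, 8 at an unadjusted p under 0.05, 6 called by DESeq2), thrombospondin partners (12, 3 and 2), hyaluronan and lubrication (11, 5 and 4), activated matrix fibroblasts (14, 7 and 7) or immediate early genes (25, 11 and 6). Tbx20, a transcription factor of the valves, was at 558, 470 and 431 CPM in Prg4-holding cells against 239, 292 and 200 CPM in the rest (edgeR adjusted p = 0.117). Cd44, the hyaluronan receptor, was at 331, 339 and 128 against 99.0, 100 and 30.6 CPM (edgeR adjusted p = 0.0536).

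The same comparison for Cilp (27 and 128, 52 and 84, 77 and 197 cells) called 4 genes higher and 4 lower of 17104 (0.0234% each way, 0.0468% in all). The higher ones were Cilp itself, Prg4, Thbs1 and Angptl7, given as a description. Prg4 was at 2786, 3369 and 869 CPM in Cilp-holding cells against 603, 892 and 228 CPM in the rest, and Thbs4 at 765, 1619 and 295 against 78.9, 25.4 and 1.30 CPM, whereas Cytl1 was at 300, 259 and 87.8 against 225, 402 and 226 CPM. Cytl1 alone of these was higher in 1 of 3 mice only. The 4 lower genes were Cnn1, Myh11, Itih4 and Igfbp3, with log2 changes of −5.46, −5.26, −4.88 and −1.93. The first 2 are contractile genes of smooth muscle, and the 10 smooth muscle markers summed to 1278, 870 and 565 CPM in Cilp-holding cells and 6920, 3214 and 1345 CPM in the rest, with none at 0. Without cells of mixed markers Cnn1, Myh11 and Igfbp3 turned to 1.01, 0.53 and 0.41. In the fibroblast-marker clusters alone Cilp was the only gene called, and leaving out mouse 1, 2 or 3 gave 1, 0 and 27 calls. No listed gene was called. The medians were 1.03 for 14 activated matrix fibroblast genes (9 at an unadjusted p under 0.05, 8 called by DESeq2), 0.72 for 20 cartilage matrix genes (11 and 9), 0.64 for 20 tendon matrix genes (12 and 11), and −0.09 over all genes. The other 5 lists had medians of −0.52 to 0.34, with 2 to 5 genes at an unadjusted p under 0.05 and 1 to 3 called by DESeq2. Postn (periostin, a matrix protein of valves and of activated fibroblasts) was at 3569, 4232 and 991 CPM in Cilp-holding cells and at 1816, 1539 and 592 CPM in the rest (edgeR adjusted p = 0.250).

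Coch-holding cells could be compared in 2 mice, with 9 and 5 such cells against 146 and 131. All of the Coch-holding cells lay in cluster 0, as did 61 and 56 of the others, so the comparison also sets cluster 0 against other clusters. Of the genes below, Prss35 is among the leading genes of cluster 0, and Smoc2 and Dpep1 are among those of cluster 3. The test called 4 genes higher (0.0261%) and 11 lower (0.0718%) of 15313, 15 in all (0.0980%). The median log2 change over all genes was −0.82, against which each change is to be read. Coch itself and Cytl1 (3.14 and 2.98 CPM in Coch-holding cells against 258 and 359 CPM) are a description. Higher in Coch-holding cells were Astn1 (237 and 556 against 25.0 and 29.1 CPM), Prss35, a protease-like secreted protein (973 and 630 against 110 and 106 CPM), and Igf1, the growth factor (1397 and 2307 against 422 and 609 CPM), with edgeR adjusted p-values of 0.0309, 0.0225 and 0.0351. Lower were the interstitial genes Smoc2 (0.225 and 4.47 against 78.1 and 678 CPM) and Dpep1 (0.449 and 5.22 against 75.9 and 600 CPM), the cartilage gene Chad (3.14 and 17.1 against 317 and 467 CPM), and Igfbp3, Colec11 and Vtn, with edgeR adjusted p-values of 0.00368 to 0.0186. Colec11 and Vtn belong to the pericyte list, which summed to 1085 and 1380 CPM in Coch-holding cells and to 3345 and 2286 CPM in the rest, with 1 of the 10 at 0 in the holders of mouse 2.

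Chad was lower in Coch-holding cells and higher in Prg4-holding ones, but the difference between these comparisons was not tested and they share cells. Prg4 itself was at 1469 and 3046 CPM in Coch-holding cells against 955 and 1814 CPM in the rest, which is a description. Thbs1 and Sox9 were also higher in both mice, while Angptl7, Comp, Clec3a, Cilp and Thbs4 differed in direction between the mice. In the fibroblast-marker clusters 6 of the 15 genes were still called: Coch, Cytl1, Smoc2, Dpep1, Chad and Ogn, a small proteoglycan. Of the lists, interstitial fibroblasts had 2 of 14 genes lower (Smoc2 and Dpep1) with a median of −1.16, and cartilage matrix had 1 of 17 lower (Chad) with a median of 0.17. The other 6 lists had no call, with 2 to 11 genes at an unadjusted p under 0.05 and, by DESeq2, 0 to 3 lower and 0 to 1 higher. With 14 cells in all, these values rest on few cells.

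Dcn-high cells were last compared with all other cells over 4 mice, which asks what the background of the 10 genes looks like. The test called 108 genes higher (0.532%) and 165 lower (0.812%) of 20315, or 273 (1.34%). Dcn defines the sides and is no result. The higher ones included Angptl7, Cytl1, Clec3a, Comp, Thbs4, Cilp and Sox9, which is a description since they were chosen with their values known. In C57BL/6 mouse 1, 49 of the 56 Dcn-high cells lay in the endocardial-like cluster 10. Outside the 10 genes, the higher ones named for their large changes were Scara5, Ces1d, Inmt, Ahsg, Dpp4 and Myoc, with log2 changes of 7.01 to 8.47. The lower ones were leukocyte genes, Ptprc, C5ar1, Fcgr3, Fcrls, Itgb2 and Cybb, with log2 changes of −8.65 to −7.74, and the 10 macrophage markers summed to 9.60 to 136 CPM in Dcn-high and 118 to 9870 CPM in other cells. By list, 5 of 21 cartilage matrix genes were higher (Cnmd, Epyc, Frzb, Chad and Prelp), 5 of 20 tendon matrix genes (Lum, Thbs2, Col1a1, Col1a2 and Col14a1), 5 of 14 interstitial fibroblast genes (Scara5, Smoc2, Dpt, Mfap5 and Gsn), 2 of 22 regulators (Gata6 and Tbx20) and 1 of 14 activated matrix fibroblast genes (Sfrp2), and none of these lists had a lower call. Tbx20 was at 374, 383 and 254 CPM in Dcn-high cells of the double-reporter mice and at 75.5, 60.6 and 45.2 CPM in the others (edgeR adjusted p = 0.0137). Thrombospondin partners, hyaluronan genes and immediate early genes had no call (5 of 12, 4 of 13 and 6 of 25 at an unadjusted p under 0.05; 5, 5 and 2 called by DESeq2). Without any 1 of the double-reporter mice the test called no gene (2104, 2236 and 2455 at an unadjusted p under 0.05 without mice 1, 2 and 3), and without the C57BL/6 mouse it called 286.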

How the data were processed

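Single cells of dissociated mouse hearts were sorted into plates and sequenced by Smart-Seq2, per the labels' protocols. The submitters' processing notes name bcl2fastq, Bowtie, Bowtie2, Subread and featureCounts and the build GRCm38; versions and the strand setting are not given in the sources used here. Raw counts per gene and cell were deposited by the authors with no normalization, and 46005 of its 46517 gene IDs matched a symbol. All 1307 cells passed 10000 counts and 500 genes, and totals ran from 50476 to 811982 counts per cell (median 274702). No pair of cells had identical counts. Smart-Seq2 counts have no molecular identifiers, so intervals cover counting error only.

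From these counts CPM per cell was computed. Cells were clustered with scanpy 1.11.5 and leidenalg 0.10.2 (2000 variable genes, 30 components, 15 neighbours, resolution 1, seed 0), leaving out 1849 genes. These included the 10 genes, the markers and the lists, except 1500015O10Rik. A list names that gene by its newer symbol Ecrg4, so it was not left out. A cluster was named only with 3 or more markers of its class raised and at least 2 more than any other class, and with no more leading genes from another class than its own; doublets were not called, and cells over 1000 CPM of summed markers of another class were left out in an alternative. Counts were summed per mouse and side, with at least 5 cells a side, and tested with edgeR 4.0.16 (R 4.3.3; TMM, filterByExpr, quasi-likelihood F test, mouse as a block, adjusted p under 0.05); DESeq2 1.42.0 was an alternative. Both sides of a pair come from the same animal, and their deviations correlated at 0.237 to 0.333 for Prg4, 0.229 to 0.386 for Cilp, 0.075 for Coch and 0.265 to 0.508 for Dcn. The steps were tested on simulated data. The genes, lists, markers and thresholds were chosen with earlier results of these data known, so no p is given for the 10 genes. Named genes were the 10, the 3 most correlated genes of each, up to 6 called genes each way with the same direction in every mouse, and up to 4 genes a list; others are named where a count of calls was small or a cluster is described. Promoters are RefSeq's.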

Additional observations from a re-analysis of the deposited data

Results flagged for a closer look

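Prg4 differed in sign between groups. In all 3 double-reporter mice it was higher in Dcn-high than in other cells, whereas in C57BL/6 mouse 1 it was lower by 131 CPM (21.2 against 152 CPM of the summed counts, a difference of −131). The summed counts of Thbs1 in that mouse also gave a difference of the other sign, −0.500 CPM (9.90 against 10.4 CPM), but its mean over cells was higher in Dcn-high cells (15.6 against 9.06 CPM), as was the share holding it (3.57% against 1.72%), so for Thbs1 the sign depends on the summary used. The difference between groups was not tested, since there is 1 C57BL/6 mouse of this size, and its Dcn-high cells are mostly of the endocardial-like cluster.

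The 11 cells of the 4 mice with few cells, of which 4 were Dcn-high, entered no comparison and still held some of the genes. The highest levels in a single cell were 129.5 CPM for Prg4, 103 for Comp, 137 for Thbs4 and 154 for Cilp, all in Dcn-high cells, and 2603 CPM for Cytl1 in a cell under the Dcn threshold.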

How the results depend on the processing

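The directions held better than the calls, but this was largely set by how the genes were picked. They had to be called and to have the same direction in every mouse, and several alternatives reuse the same summed counts. For 438 values of named genes under the alternatives, 241 kept direction and call, 187 kept direction only and 10 reversed: Vtn in the Prg4 comparison at 0.28 in cluster 0 and 0.09 without mixed cells, Cnn1 there at 0.81 without mixed cells, Dpep1, Prss23os and Prss23 there at 2.78, 1.41 and 1.36 in cluster 0, and in the Cilp comparison Cnn1 at 1.01, Myh11 at 0.53 and Igfbp3 at 0.41 without mixed cells and Myh11 at 0.15 in cluster 0. In the Prg4 comparison cluster 0 left mice 1 and 2 only, and the setting without mixed cells left mice 2 and 3 only. For Prg4, Cilp, Coch and Dcn (14, 8, 15 and 273 calls) DESeq2 called 1090, 670, 280 and 2540. Without the filter on low counts Prg4 had 76 and Coch 118. Cells without mixed markers gave 2 for Prg4, 0 for Cilp (349 at an unadjusted p under 0.05) and 432 for Dcn; fibroblast-marker clusters gave 3, 1, 6 and 575, and cluster 0 gave 1, 1 and 4 for the first 3. Holding at 500 CPM gave 8 for Prg4, a Dcn threshold of 1000 CPM gave 3 for Cilp and 9 for Coch, and the stricter cell filter gave 3 for Cilp. Leaving out a mouse gave 1 to 2 for Prg4, 0 to 27 for Cilp and 0 to 286 for Dcn; the cause was not tested. At a threshold of 1 count the mean shares of Dcn-high cells with Prg4, Cilp and Coch were 91.4%, 81.3% and 12.6% over the double-reporter mice. That threshold parts the cells less well. Among other cells of mice 1 to 3, 74.6%, 66.1% and 75.8% had a count of Prg4. For Cilp these shares were 21.6%, 53.2% and 58.1%, and for Coch 7.51%, 3.67% and 0%. The mean correlation of 0.238 ranged from 0.205 to 0.266 over the mice left out, and was 0.176 in the fibroblast-marker clusters and 0.135 in cluster 0. The fibroblast-marker and cluster 0 settings were chosen after seeing the data.

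Without the replicate block the calls were 9 for Prg4, 1 for Cilp, 0 for Coch (2700 at an unadjusted p under 0.05) and 2 for Dcn; the block pairs sums of the same animal. For Coch, leaving out a mouse, 10 cells a sum, holding at 500 CPM and leaving out mixed cells could not be fitted, since they leave 1 mouse or none. Withholding 1500015O10Rik from clustering as well gave 14 clusters in place of 16, with the same 446 Dcn-high cells in clusters led by fibroblast markers. This setting was added after the data were seen, and the cells of cluster 0 were not followed in it.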

Other observations

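Thbs1 and Sox9 were also seen in a small cluster apart from the fibroblasts and the endocardial-like cells. Cluster 13 had 14 cells, 11 of them of C57BL/6 mouse 1, with Pecam1 and Cdh5 raised and Prox1, Reln and Flt4, genes known from lymphatic endothelium, among its leading genes. Of these 14 cells 5 held Thbs1 and 2 held Sox9. In C57BL/6 mouse 1 alone, 2 of the 11 held Thbs1 and 2 held Sox9, against 1 and 0 of its 150 cells in cluster 1 and 2 and 0 of its 84 in cluster 6. The clusters were chosen after their values were seen, so these are values with no test.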
